A study of Rattus norvegicus with 7 samples.

Results

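The miRNA genes mir-322, mir-503, mir-351, mir-542, mir-450a and mir-450b lie side by side on the rat X chromosome and form a single cluster. In the deposited table of rat retina, 12 of the 571 miRNA features carried these names, among 5491 features of noncoding RNA. The members were chosen by these names, and the names were chosen by their FPKM (fragments per kilobase of covered sequence and 1000000 mapped fragments) at all 7 ages of these same libraries. The fall of the cluster after birth is therefore a description, and no test was made of it. The retinas came from untreated Wistar WU rats at postnatal day 1, 3, 5, 7, 10, 15 and 21 (P1 to P21). At each age the RNA of 3 retinas was pooled and recorded as 1 small RNA sample, called 1 library here. There are therefore no replicates, no tests between ages and no p-values. P21, the oldest age, served as the reference.

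A miRNA hairpin is cut into short mature strands, and the seed, bases 2 to 8 of a mature strand, pairs with target mRNAs. By their seeds, miR-322 and miR-503 stand with the miR-15 and miR-16 group, whose members repress cyclins and other genes of the cell cycle and slow the entry of cells into S phase. In the newborn rat the retina still holds dividing progenitor cells, whose last products are rods, bipolar cells and Müller glia, and division ends in the weeks that follow.

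The mature sequences below are shown because the seeds divide the cluster into groups with different partners elsewhere in the genome. They are RefSeq sequences (GRCr8), written 5′ to 3′, with the seed in capitals. The reference list held 6 hairpins of the cluster and 12 mature strands, and of these the strand carrying the known targeting role is given for each hairpin. The seed of miR-322-5p is shared by 4 strands encoded outside the cluster, and miR-503-5p has 6 of its 7 seed bases.
miR-322-5p: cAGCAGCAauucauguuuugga
miR-503-5p: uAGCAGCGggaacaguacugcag
miR-15b-5p: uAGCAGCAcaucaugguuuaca
miR-16-5p: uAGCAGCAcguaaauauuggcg
miR-195-5p: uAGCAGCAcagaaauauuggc
miR-497-5p: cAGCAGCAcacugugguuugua

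The seed of miR-351-5p is that of miR-125a-5p and miR-125b-5p, strands abundant in mature neural tissue. Past the seed the strands part: of 22 positions compared, miR-351-5p and miR-125b-5p were identical at 10.
miR-351-5p: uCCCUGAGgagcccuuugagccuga
miR-125a-5p: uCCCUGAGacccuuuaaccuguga
miR-125b-5p: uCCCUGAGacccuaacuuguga

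The strands miR-450a-5p and miR-450b-5p were identical at 20 of 21 positions compared, and their seeds are the same. The seed of miR-542-3p was found in no other mature strand among the 724 of the reference list.
miR-450a-5p: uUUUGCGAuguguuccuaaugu
miR-450b-5p: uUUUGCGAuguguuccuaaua
miR-542-3p: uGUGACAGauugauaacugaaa

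In the deposited table, placed on Rnor_6.0, the cluster was present as 2 arrays on the forward strand of chromosome X. Array 1 (chrX:158148161-158158963) held 7 loci in the order Mir322, Mir503, Mir351, Mir542, rno-mir-450b-1, Mir450a1 and, further downstream, an outlying rno-mir-542-1 (ENSRNOG00000046738.1). Array 2 (chrX:158584542-158589705) held 5 loci, rno-mir-322-1, rno-mir-503-1, rno-mir-351-1, rno-mir-542-1 (ENSRNOG00000046539.1) and rno-mir-450b-1 (ENSRNOG00000050904.2), and none of mir-450a. The starts of the arrays lay 436381 bases apart. In GRCr8 the list held 1 copy of each of the 6 hairpins, within 5309 bases between Hprt1 and Plac1, and 1 further gene, the lncRNA LOC102550366, covered Mir351, Mir503 and Mir322.

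The copies are not independent measurements, since they share their sequence. Estimated alignments summed from P1 to P15 were 531 for Mir503 and 524 for rno-mir-503-1, so the array 1 locus had 50.3% (95% exact Clopper-Pearson interval 47.3 to 53.4). For mir-322 they were 267 and 286, or 48.3% (44.0 to 52.5) at the array 1 locus, and for mir-450b 79 and 81, or 49.4% (41.4 to 57.4). The copies of these 3 miRNAs thus had near-equal counts. The files do not say whether a read that matches both copies was counted at both or split between them, so a sum over copies may hold a read more than once, and its counting interval would then be too narrow. Whether array 2 is present in the genome of these rats was not tested. For mir-542 the 3 loci had 88, 86 and 107 alignments, of which Mir542 had 31.3% (25.9 to 37.1). Only mir-351 was uneven, with 44 alignments at Mir351 and 23 at rno-mir-351-1, or 65.7% (53.1 to 76.8) at Mir351.

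The alignments could be estimated because low FPKM values were not continuous. In every library 100% of the low values were whole-number sums of 1 to 4 steps, within a small tolerance. A step is the value of 1 alignment for a given length of covered sequence. The share refers to the 353 of 724 covered lengths at which that value was found directly. By these steps the libraries held 299424 alignments to noncoding RNA at P1, 499841 and 416452 at P3 and P5, 598561 and 455308 at P7 and P10, and 452344 and 1366488 at P15 and P21. The share on miRNAs was 59.5% at P1, 39.0% and 62.8% at P3 and P5, 57.8% and 70.1% at P7 and P10, and 74.0% and 72.0% at P15 and P21, lowest at P3 and highest at P15. In high values the steps cannot be told apart, and each total but that of P1 takes them to hold equal shares of the signal. The steps alone allow 335818 to 663863 at P3, 279313 to 553591 at P5 and 483502 to 713620 at P7. At P10 they allow 200928 to 709688, at P15 127857 to 776830 and at P21 449853 to 1795166, so the ranges are widest at the late ages. Of the 84 values of the cluster (12 loci at 7 ages), 81 were read as exact whole alignments, within a relative tolerance of 1.2e-05. The alignments ran from 1 to 263, and 22 of the values rested on fewer than 10. Intervals given with levels and ratios are 95% counting intervals, and they cover counting error only, since PCR copies are not independent molecules. They describe how closely single libraries were counted and are not tests between ages.

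FPKM depends on the length of the block that reads covered, and in the cluster that length ran from 25 to 135 bases. At P1 a single alignment was worth 1405 FPKM at rno-mir-351-1 (25 bases), 550.4 at Mir450a1 (36 bases) and 32.0 at the outlying rno-mir-542-1 (135 bases). A further scale was therefore used, the length-free level, which is FPKM divided by the P1 value of 1 alignment for that block length, per 1000000 of the same sum over all miRNAs of the library. From P3 on, an alignment keeps the weight of its step in this level, so a length-free level is not a count of alignments. All 12 loci had the hairpin length of the reference, which allowed the blocks to be set against the arms. At 10 loci the block held both the 5p and the 3p strand. At 2 loci it held the 5p strand only: the block of rno-mir-351-1 ran from base 16 to base 40, the exact span of miR-351-5p, and that of Mir450a1 from base 4 to base 39, where miR-450a-5p ends. At Mir503 and the outlying rno-mir-542-1 the block ran past the end of the hairpin. The hairpin of Mir450a1 (GRCr8, chrX:137720933-137721023, reverse strand) is shown with the covered block in capitals, since this locus had the highest FPKM of the cluster on a block of 36 bases.
Mir450a1 hairpin: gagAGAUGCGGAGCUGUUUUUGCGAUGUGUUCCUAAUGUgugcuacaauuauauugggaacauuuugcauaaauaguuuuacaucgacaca

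The cluster as a whole was high in the first days after birth and lower from P7 on. Its summed FPKM was 107168 at P1, 105021 and 64337 at P3 and P5, 27989.5 and 30415 at P7 and P10, and 17664 and 12598 at P15 and P21. P1 was 8.51-fold above P21, a log2 difference of 3.09 (2.70 to 3.49). In whole retina, fewer cells of a type and less RNA per cell cannot be told apart. From highest to lowest the order was P1, P3, P5, P10, P7, P15 and P21. Between neighbours in this order the log2 differences of P3 and P5 (0.71, 0.42 to 1.00), P5 and P10 (1.08, 0.63 to 1.55) and P7 and P15 (0.66, 0.05 to 1.31) were larger than their counting error. Those of P1 and P3 (0.03, -0.21 to 0.27), P10 and P7 (0.12, -0.40 to 0.63) and P15 and P21 (0.49, -0.19 to 1.13) were not. The order is a description of 7 libraries. The place of P1 and P3 turned with scaling, since P3 came first after scaling to the miRNA total or by median of ratios.

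On the length-free scale the descent had no pause. The summed length-free level was 4261, 2452, 1750.5, 864, 609.6, 352 and 246 in order of age, 17.3-fold higher at P1 than at P21 (log2 4.12, 3.88 to 4.36). Every age was lower than the one before it. The cluster was a small part of retinal miRNA throughout, 0.426% of the summed length-free level of miRNAs at P1 and 0.0246% at P21. On the length-free scale the median log2 difference of all miRNAs was 1.11 at P1, 0.91 and 0.63 at P3 and P5, 0.47 and 0.26 at P7 and P10, and -0.05 at P15, each against P21. Beside these the median of the 12 loci was 2.72 at P1, 2.87 and 2.81 at P3 and P5, 1.91 and 1.36 at P7 and P10, and -0.12 at P15.

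**Figure D1:**
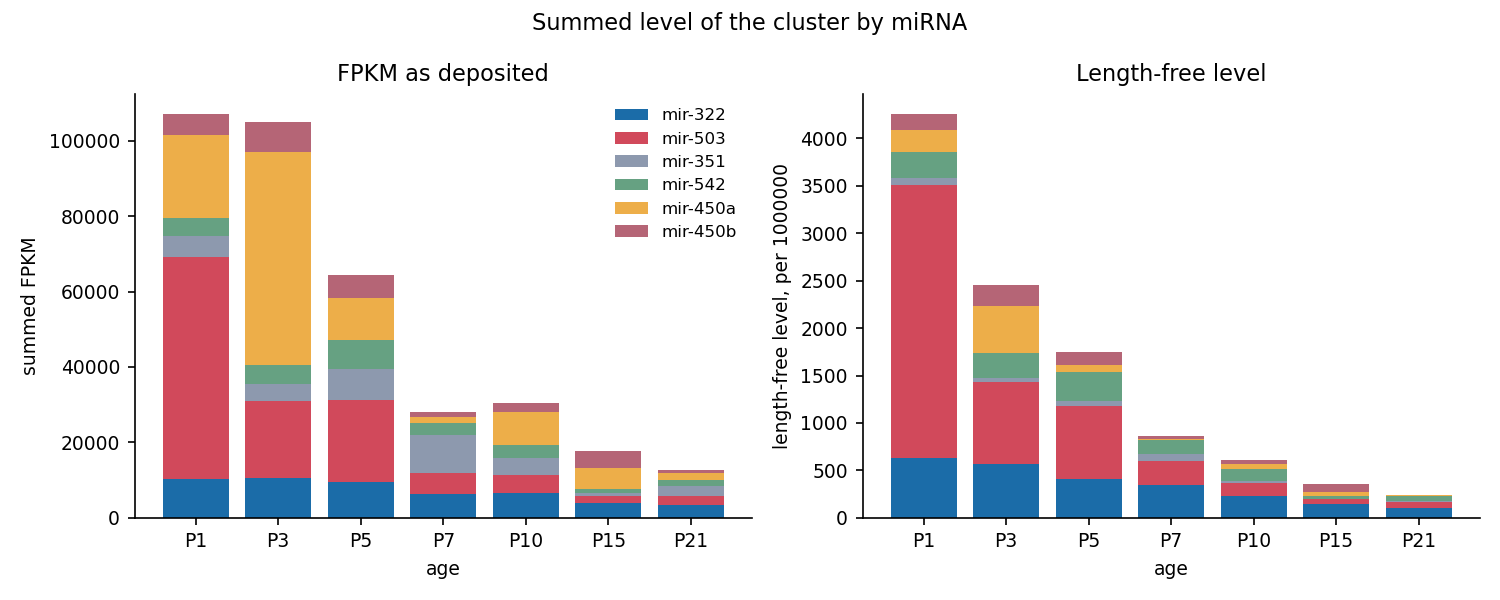
Summed level of the cluster at each age, as FPKM (left) and as length-free level per 1000000 (right), in bars stacked by miRNA from 1 library per age. Both scales are highest at P1 and lowest at P21, and FPKM is near level from P1 (107168) to P3 (105021).

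The share taken by each miRNA changed with age. At P1 mir-503 made up 67.6% of the length-free level of the cluster and mir-322 14.9%, whereas at P21 mir-322 made up 42.9% and mir-503 23.6%. At P3 mir-503 had 35.3%, mir-322 23.1% and mir-450a 20.4%. At P15 mir-450b reached 23.9%, its highest share at any age, and mir-322 had 39.9%. In counted alignments the shares at P15 were 26.4% for mir-450b and 23.6% for mir-322.

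The loci of mir-503, a repressor of the cell cycle close in seed to miR-16, had the steepest fall from P1 to P21. Mir503 (ENSRNOG00000048299.1) measured 25733 FPKM at P1, 8719.6 and 8759.6 at P3 and P5, 2389 and 2462 at P7 and P10, and 704 and 949 at P15 and P21. Its copy rno-mir-503-1 (ENSRNOG00000048126.1) measured 32966, 11652, 13012, 3309, 2252, 1219 and 1453 FPKM in the same order. Both stood far above all later ages at P1, held a plateau from P3 to P5 and were low from P7. Mir503 fell by a log2 difference of 4.76 (4.10 to 5.51) from P1 to P21 and rno-mir-503-1 by 4.50 (3.87 to 5.20), or 27.1-fold and 22.7-fold. Among the 571 miRNA features these falls ranked 10 and 12.

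The length-free level of mir-503, summed over its loci, was 2879.8 at P1, 866 and 765 at P3 and P5, 251 and 137 at P7 and P10, and 55.9 and 58.1 at P15 and P21. The changes between neighbouring ages in summed FPKM were -1.53 (-1.80 to -1.26) from P1 to P3 and -1.93 (-2.33 to -1.55) from P5 to P7 on the log2 scale. From P10 to P15 it was -1.29 (-2.56 to -0.17). From P3 to P5 (0.10, -0.23 to 0.42) and P15 to P21 (0.32, -0.75 to 1.56) no difference was detectable at this depth on either scale. From P7 to P10 the change was -0.27 (-0.93 to 0.35) in FPKM and -0.87 (-1.52 to -0.26) in length-free level.

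The loci of mir-322, which carries the miR-15 and miR-16 seed in full, fell less. Mir322 (ENSRNOG00000046692.1) measured 5432 FPKM at P1, 5877 and 5597 at P3 and P5, 2832 and 3693 at P7 and P10, and 2496 and 1646 at P15 and P21. Its copy rno-mir-322-1 (ENSRNOG00000046203.1) measured 4930.5, 4810.3, 3829.9, 3369, 2909.7, 1380.2 and 1776 FPKM. Both were high from P1 to P5 and lowest at P15 or P21, and between P1 and P3 both changed little, unlike mir-503. Mir322 differed by a log2 of 1.72 (1.07 to 2.39) between P1 and P21 and rno-mir-322-1 by 1.47 (0.88 to 2.08). In the summed FPKM of mir-322 the largest steps down were those from P10 to P15 (-0.77, -1.55 to -0.03) and from P5 to P7 (-0.60, -1.01 to -0.20). In length-free level they were those from P10 to P15 (-0.72, -1.50 to 0.01) and from P7 to P10 (-0.58, -1.08 to -0.09), so the ages at which mir-322 fell depend in part on the scale.

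Although they lie next to each other, mir-503 and mir-322 changed places. The ratio of their length-free levels within a library does not depend on how libraries are scaled. It was 4.54 (3.70 to 5.62) at P1, and 1.53 (1.18 to 1.99) and 1.85 (1.44 to 2.40) at P3 and P5. At P7 it was 0.723 (0.539 to 0.967), at P10 0.591 (0.363 to 0.944), at P15 0.398 (0.163 to 0.891) and at P21 0.551 (0.368 to 0.815). The interval lay above 1 up to P5 and below 1 from P7 on. At P15 mir-503 had 20 alignments of the smaller step and 2 of the larger, and mir-322 had 14 and 11. The low ratio at P15 thus rests on the few alignments of the larger step. In counted alignments, each with the same weight and a setting chosen after seeing the data, the ratio was likewise above 1 up to P5 and below 1 from P7 on, but the interval included 1 at P10 (0.686, 0.465 to 1.00) and at P15 (0.880, 0.473 to 1.63). The intervals also depend on how reads were counted at the copies. With counts divided by the number of copies, a further setting chosen after seeing the data, they lay above 1 up to P5. They included 1 at P7 (0.474 to 1.10) and P10 (0.290 to 1.16) and also at P15 (0.102 to 1.27). The interval of P21 was then 0.306 to 0.965. The interval at P1 lay above those of all other ages with either count.

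**Figure D2:**
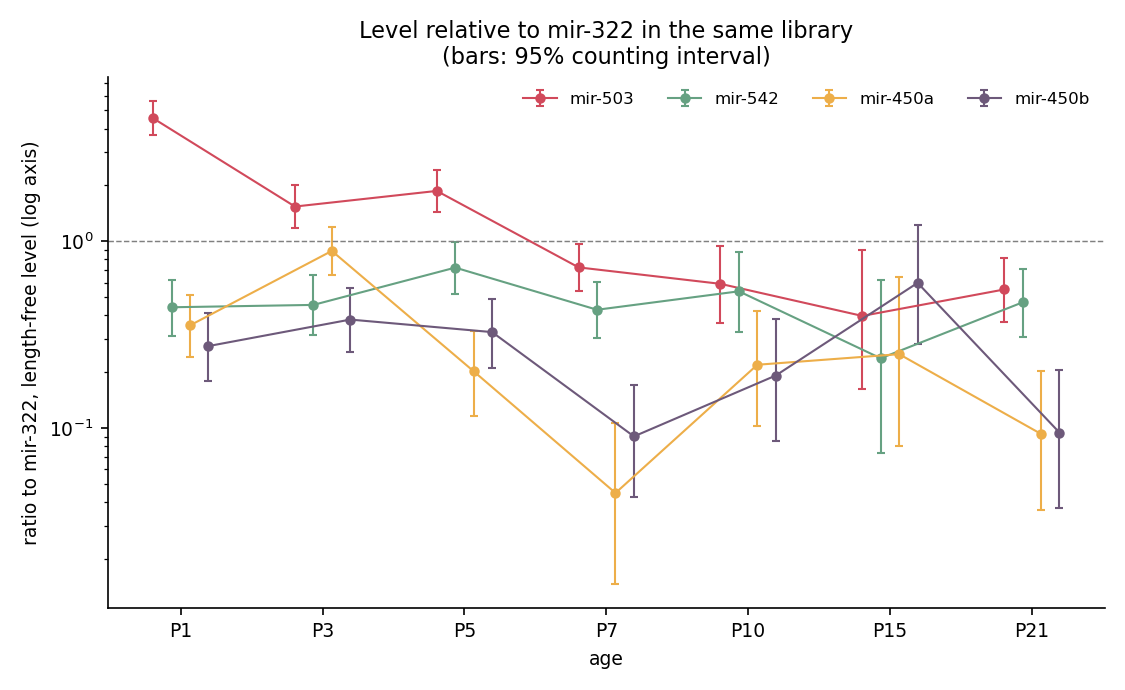
Ratio of the length-free levels of mir-503, mir-542, mir-450a and mir-450b to that of mir-322 at each age, on a log axis, with 95% counting intervals. The ratio of mir-503 passes from 4.54 at P1 to 0.551 at P21, crossing 1 between P5 and P7.

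The loci of mir-542, whose miR-542-3p is known to repress survivin, were highest at P3 or P5 in FPKM. In length-free level the array 2 copy of rno-mir-542-1 was highest at P1 (129, with 114 at P5). Mir542 (ENSRNOG00000049278.1) measured 1499 FPKM at P1, 2574 and 3452 at P3 and P5, 1582 and 1225 at P7 and P10, and 209 and 517 at P15 and P21. The array 2 copy of rno-mir-542-1 measured 2846, 1758, 3483, 1378, 1883, 637 and 865 FPKM, and the outlying copy in array 1 measured 513, 632, 631, 212, 459, 98.3 and 221 FPKM. All 3 were lowest at P15. Their log2 differences between P1 and P21 were 1.53 (0.07 to 3.08), 1.72 (0.70 to 2.79) and 1.21 (0.08 to 2.36).

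The length-free level of mir-542 was 281 at P1, 258 and 298 at P3 and P5, 149 and 125 at P7 and P10, and 33.2 and 49.6 at P15 and P21. It was level from P1 to P5, and its summed FPKM dropped from P5 to P7 (-1.25, -1.85 to -0.66 on the log2 scale) and from P10 to P15 (-1.92, -3.79 to -0.42). The ratio of mir-542 to mir-322 was 0.442 (0.311 to 0.623) at P1 and 0.470 (0.306 to 0.710) at P21. It ran from 0.236 at P15 to 0.721 at P5, with overlapping intervals at all ages. In counted alignments it was 0.560 at P15, and the lowest ratio was 0.431 at P7.

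Mir450a1 (ENSRNOG00000047823.1) departed from the others at P3. It measured 22016 FPKM at P1, 56558 and 11232 at P3 and P5, 1692 and 8582 at P7 and P10, and 5649 and 1925 at P15 and P21, from 40, 73, 20, 5, 10, 15 and 9 alignments. It was highest at P3, was low at P7 and was higher again at P10. In FPKM as deposited P7 was its lowest age, with P21 close to it. In length-free level P21 (9.81) was lower than P7 (15.6). P7 also lay above P21 under each of 3 scalings, by a log2 of 0.06 to 0.47. From P1 to P3 the log2 change was 1.36 (0.81 to 1.94), from P3 to P5 -2.33 (-3.12 to -1.61), from P5 to P7 -2.73 (-4.47 to -1.28) and from P7 to P10 2.34 (0.72 to 4.18). Between P1 and P21 it was lower at P21 by a log2 of 3.51 (2.34 to 4.92). Of the 73 alignments at P3, 58 were of the larger step, and the rise from P1 to P3 rests on these.

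At P3 this locus alone held 53.9% of the summed FPKM of the cluster, against 20.4% of its length-free level and 15.3% of its counted alignments. Without Mir450a1 the cluster measured 85152 FPKM at P1, 48463 and 53106 at P3 and P5, 26297 and 21833 at P7 and P10, and 12014 and 10673 at P15 and P21. P3 then stood below P1 and close to P5, and the P1 to P21 difference was 3.00 (2.60 to 3.42) on the log2 scale.

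The loci of mir-450b, whose seed is that of mir-450a, were low at P7 and P21 and higher at P10 and P15, as Mir450a1 was. The array 1 copy of rno-mir-450b-1 (ENSRNOG00000047824.2) measured 2355 FPKM at P1, 4847 and 3568 at P3 and P5, 259.9 and 785 at P7 and P10, and 2144 and 333 at P15 and P21. The array 2 copy measured 3260.1, 3141, 2421, 858, 1689, 2329 and 311 FPKM. Both were low at P7, higher at P15 and low again at P21, and P15 was the age at which 8 of the 12 loci were lowest in FPKM. The log2 differences between P1 and P21 were 2.82 (1.08 to 4.99) and 3.38 (1.70 to 5.59). In the summed FPKM of mir-450b the largest changes were those from P5 to P7 (-2.42, -3.59 to -1.37) and P15 to P21 (-2.79, -4.34 to -1.39). The ratio of mir-450b to mir-322 in length-free level was 0.0902 (0.0428 to 0.170) at P7, 0.598 (0.282 to 1.22) at P15 and 0.0945 (0.0371 to 0.203) at P21. In counted alignments the P15 ratio was 1.12 and its interval included 1, so which was higher at P15 depends on the weighting. The ratio of mir-450a to mir-450b was 2.33 (1.57 to 3.52) in length-free level and 1.78 (1.20 to 2.68) in counted alignments at P3, and both intervals included 1 at every other age.

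The loci of mir-351, which has the seed of miR-125, had the fewest alignments of the cluster over the 7 ages, 54 and 28, although the mean FPKM of rno-mir-351-1, on its short block, was 4312. Mir351 (ENSRNOG00000050456.1) measured 1406 FPKM at P1, 1112 and 1431 at P3 and P5, 1185 and 535 at P7 and P10, and 79.9 and 478 at P15 and P21, from 9, 8, 10, 13, 3, 1 and 10 alignments. Its copy rno-mir-351-1 (ENSRNOG00000046106.1) measured 4214, 3339.5, 6922, 8924, 3939.7, 718 and 2125 FPKM, from 3, 3, 5, 9, 2, 1 and 5 alignments. Mir351 was even from P1 to P7 and lower at P10, P15 and P21, and rno-mir-351-1 was highest at P7, the only member to peak there. All 9 alignments of rno-mir-351-1 at P7 were of the larger step. Between P1 and P21 the intervals included 0 for Mir351 (1.56, -0.09 to 3.31) and for rno-mir-351-1 (0.99, -1.91 to 3.87), so a difference was not detectable at this depth for either locus. The summed length-free level of mir-351 was 67.4 at P1, 70.6 and 20.2 at P7 and P10, and 3.48 and 12.8 at P15 and P21. Summed over both loci, P1 was above P21 by a log2 of 2.39 (1.03 to 3.81) on that scale and by 1.11 (-1.03 to 3.33) in FPKM. Its ratio to mir-322 in length-free level was highest at P7, at 0.204.

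**Figure D3:**
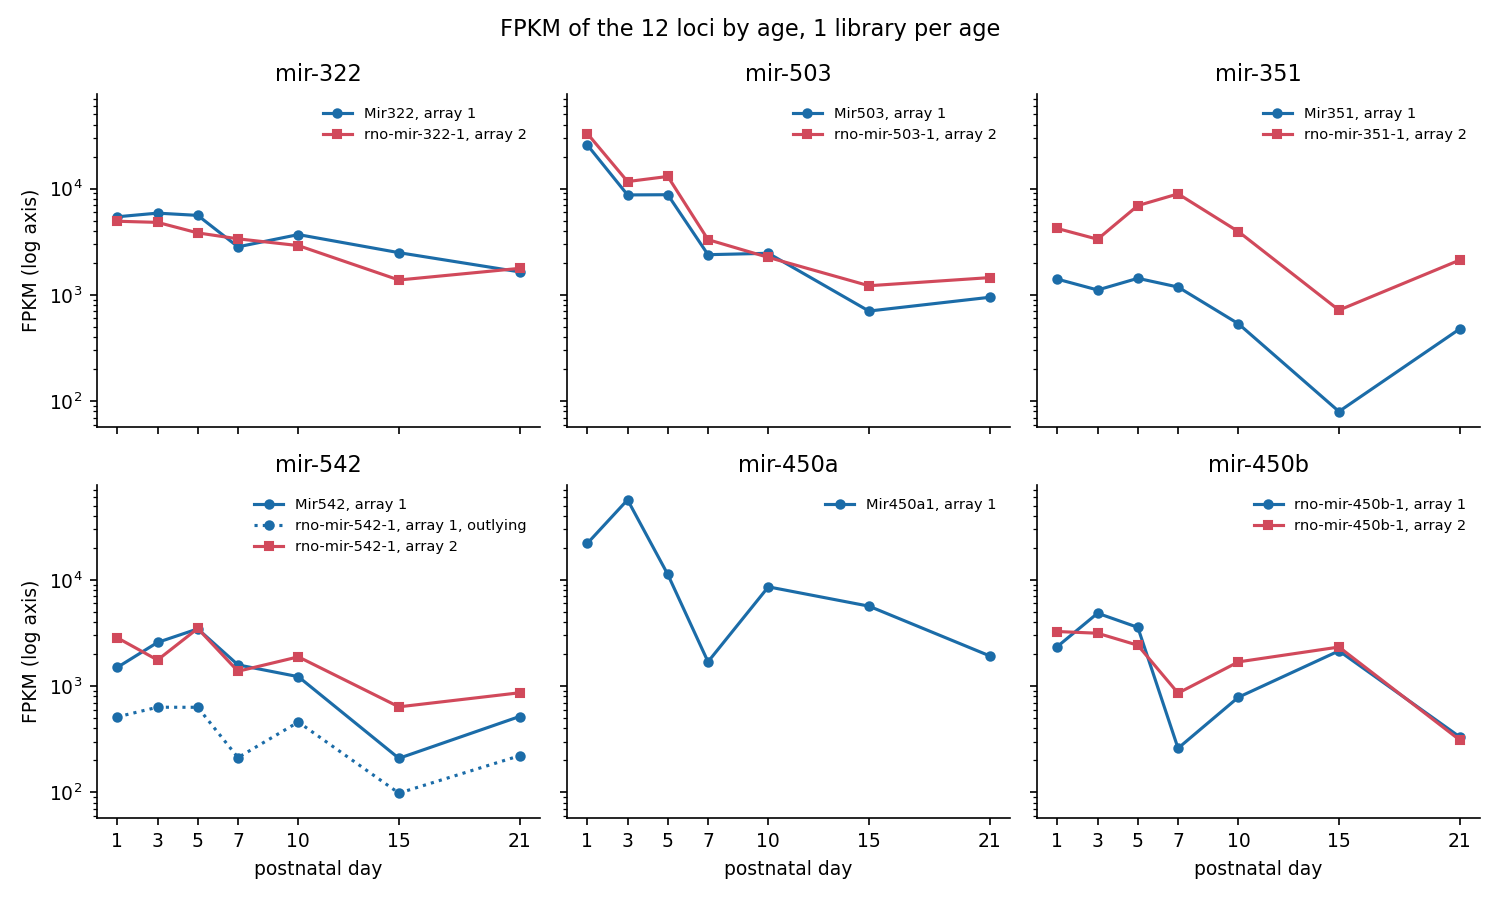
FPKM of each of the 12 loci at each age, on log axes, with 1 panel per miRNA and a line per locus. Both loci of mir-503 fall most from P1 to P21, mir-450a peaks at P3 and mir-450b is higher at P15 than at P7 or P21.

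Across the members, in FPKM as deposited, 4 loci were highest at P1, 4 at P3, 3 at P5 and 1 at P7. In the same FPKM 8 were lowest at P15, 2 at P7 and 2 at P21. These ages turned in part with the scale. In length-free level Mir322, Mir351 and the array 2 copy of rno-mir-542-1 were highest at P1. On that scale Mir450a1, rno-mir-503-1 and the array 1 copy of rno-mir-450b-1 were lowest at P21. No locus was highest at P10 or later. The correlation of a member's log2 FPKM over the 7 ages with that of the sum of the other members ran from 0.36 (rno-mir-351-1) to 0.96 (Mir322). These points share libraries and their depth.

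Counts of members past 2-fold describe how many loci carried the difference from P21, beside the share of all 571 miRNA features past the same limit. At P1, 11 of 12 members were at least 2-fold higher than at P21, as were 32.9% of all miRNA features, with a median log2 difference of 1.72 for the members and 0.05 for all, and 0 members were at least 2-fold lower, beside 31.5% of all. At P3 it was 11 of 12 beside 28.7% of all, and at P5 12 of 12 beside 31.7%. The members' medians were 2.07 and 2.28, with -0.02 for all miRNAs at either age. The locus below the limit at both P1 and P3 was rno-mir-351-1. These counts also turned with scaling. At P3 the array 2 copy of rno-mir-542-1, at 1.02 as deposited, was at 0.99 by median of ratios and 0.89 by trimmed mean of M-values. By the miRNA total rno-mir-351-1 passed the limit at P3 (1.52). At P5 rno-mir-322-1, at 1.11 as deposited, was at 0.97 by median of ratios.

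At P7, 6 of 12 members were at least 2-fold higher than at P21, beside 27.1% of all, and 0 members were at least 2-fold lower, beside 34% of all. This count rose with scaling, which multiplied the P7 values of all miRNAs. The factors were 1.57 by the miRNA total, 1.19 by median of ratios and 1.27 by trimmed mean of M-values. The share of all miRNAs past the limit was not computed under these scalings at P7, so the rise is not read as one of the members. Mir322 and rno-mir-322-1 passed the limit under each of 3 scalings (1.03 and 1.17 by median of ratios). The array 2 copy of rno-mir-542-1 passed it by the miRNA total (1.32) and trimmed mean of M-values (1.02). At P10, 8 of 12 were higher, beside 24.9% of all. Under scaling the outlying rno-mir-542-1 fell below the limit at P10 by trimmed mean of M-values (0.96), and rno-mir-351-1 passed it by the miRNA total (1.14). At P15, 3 of 12 were higher, beside 11% of all, and these were Mir450a1 and both loci of rno-mir-450b-1. At P15, 4 of 12 were lower, beside 32.4% of all, and these were Mir351, rno-mir-351-1, Mir542 and the outlying rno-mir-542-1. The outlying locus no longer reached the limit under any scaling (-0.92 by median of ratios). Mir542 did not reach it by the miRNA total (-0.82) or trimmed mean of M-values (-0.95). By the miRNA total Mir322 was past the limit on the higher side (1.08). The median of the members at P15 was -0.40 and that of all miRNAs -0.37. The FPKM of the members chose them, so nothing further is read from these counts.

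All 12 members and all 571 miRNA features had a mean of at least 10 FPKM. A mean of at least 20 alignments was reached by 5 members, namely both loci of mir-503, both of mir-322 and Mir450a1, and by 344 of the miRNA features.

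**Figure D4:**
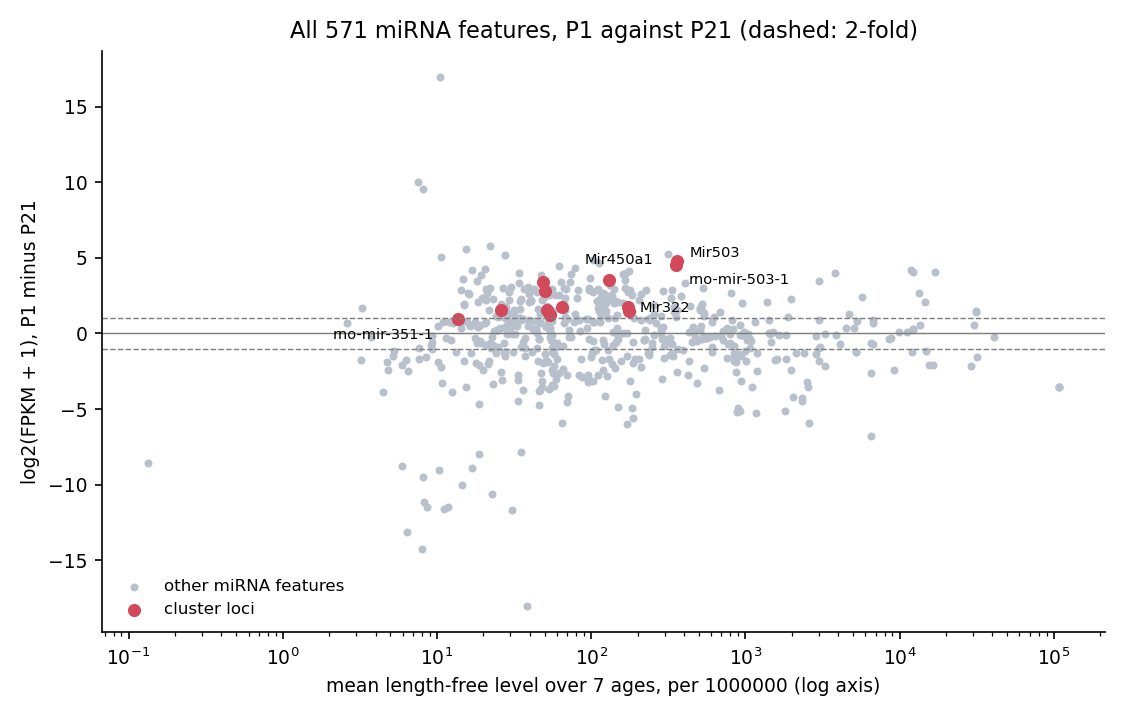
Difference in log2(FPKM + 1) between P1 and P21 for all 571 miRNA features against their mean length-free level, on a log axis, with the 12 cluster loci in red. All cluster loci lie above 0, with Mir503 (4.76) and rno-mir-503-1 (4.50) highest among them.

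From P3 to P15 each library had 2 step sizes, and P21 had 4. By the published account each pool was sequenced 2 times, but the steps could not be assigned to runs. The alignments of P3 to P15 are therefore described as 2 series of counts, one worth the smaller step and the other the larger, with each series taken to hold an equal share of the miRNA signal. At P3 the series differed for Mir450a1. It had 15 alignments in the series of the smaller step and 58 in that of the larger, or a length-free level of 116 and 887 per 1000000 of the series. The sum of the rest of the cluster ran the other way at P3, with 299 and 104 alignments, or 2312 and 1589.6 per 1000000. For mir-503 the values were 1028 and 703, for mir-322 704 and 428, for mir-542 302 and 214 and for mir-351 77.3 and 15.3. Only mir-450b, with 201 and 229, was slightly higher in the larger step, as Mir450a1 was. At P5 the whole cluster measured 1756 and 1745 per 1000000, and Mir450a1 63.3 and 103. The P3 peak of Mir450a1 thus lay in the series of the larger step. In that of the smaller step its level at P3, 116, was below its length-free level at P1, 225.

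Of 4 skeletal muscle markers, 3 were high at P3 and P5, and at P3 these were high in the same series as Mir450a1. Mir206, a miRNA made in skeletal muscle, measured 46.4 and 1069.9 per 1000000 in the series of P3, from 6 and 70 alignments. Mir133b measured 77.3 and 1238, and Mir1b 38.7 and 779.5. All 3 were thus far higher in the series that held most of the Mir450a1 alignments. At P5 the same miRNAs were again higher in the series of the larger step, Mir206 with 23.0 and 491, Mir133b with 40.3 and 639 and Mir1b with 51.8 and 730.1. The whole cluster was even at P5, but mir-450a, mir-542 (230 and 365) and mir-450b (97.8 and 171) were higher in that series. There mir-503 (869 and 662) and mir-322 (437 and 388) were lower, and mir-351 was even. At P10 Mir450a1 measured 16.1 and 85.2, from 4 and 6 alignments. Mir206 and Mir133b measured 20.1 and 28.4 each at P10, and Mir1b 40.2 and 42.6. The fourth, Mir499, was not raised at these ages, with a length-free level of 157 at P1, 139 and 135 at P3 and P5 and 217 at P21, and at P3 it was lower in the series of the larger step (201 and 76.4).

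The muscle list had 4 loci in the table, 1 of them at least 2-fold higher at P1 than at P21 and 1 lower. Beside the counts of this and the lists that follow, 32.9% of all miRNA features were higher at P1 by the same limit and 31.5% lower. The summed FPKM of the muscle list was 11814 at P1, 169695 and 105354 at P3 and P5, 9277 and 21469 at P7 and P10, and 17096 and 17779 at P15 and P21, highest at P3 and P5. Its most abundant locus by mean length-free level was Mir499, and none of its markers was at 0 at any age. The part of muscle RNA in the level of Mir450a1 or of the cluster was not tested.

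**Figure D5:**
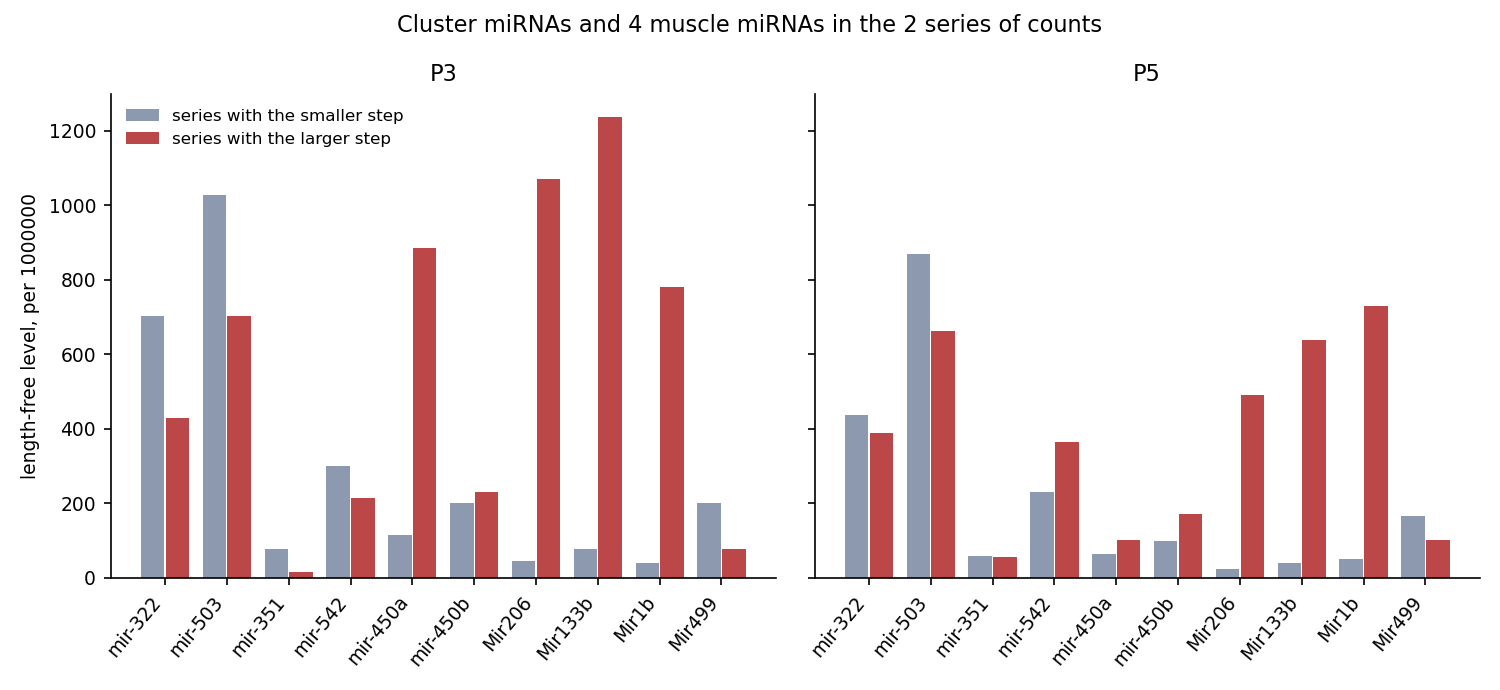
Length-free levels of the cluster miRNAs and of Mir206, Mir133b, Mir1b and Mir499 in the 2 series of counts at P3 and P5. At P3, Mir450a1 (116 and 887, shown as mir-450a), Mir206, Mir133b and Mir1b are higher in the series of the larger step, and mir-322, mir-503 and Mir499 are lower.

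Other cell types that a dissected retina can hold were followed by the same kind of list, and no listed locus was at 0 at any age. The 3 loci of endothelium and mural cells, led by Mir126a, summed to 77356 FPKM at P1, 58959 and 70734 at P3 and P5, 21511 and 73858 at P7 and P10, and 128087 and 132175 at P15 and P21, with 0 higher and 1 lower at P1. The 4 erythroid and myeloid loci, led by Mir451a, summed to 20243, 5766, 10526, 5819.6, 17380, 9011 and 14910.4 FPKM, with 2 higher and 0 lower at P1. The vascular list was lowest at P7 and the blood list at P3 and P7, whereas the cluster was lowest at P21. By length-free level both were highest at P1, at 13198 and 1128, with 7261 and 398 at P21.

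The 2 loci of pigment epithelium, led by Mir204, summed to 87709 FPKM at P1, 168716 and 154026 at P3 and P5, 141125 and 287111 at P7 and P10, and 455449 and 483914 at P15 and P21, with both lower at P1. The photoreceptor loci Mir183 and Mir96, the first the more abundant, summed to 117463, 340198, 468004, 422918, 1015632, 741822 and 537842 FPKM, both lower at P1. The 5 loci of neurons, led by Mir124-2, summed to 1043467, 2960767, 5839066, 5485210, 7460923, 8557656 and 11851221 FPKM, with 0 higher and 3 lower at P1. These 3 lists were lowest at P1, where the cluster was highest, and photoreceptor miRNAs were highest at P10. The part of all these cell types in the levels of the cluster was not tested.

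The miRNAs sharing the seed of mir-322 were divided. The 4 loci in the table, led by Mir16, summed to 412887 FPKM at P1, 275118 and 318957 at P3 and P5, 270507 and 411237 at P7 and P10, and 262205 and 222301 at P15 and P21. Between P1 and P21 the log2 difference was 2.43 for Mir15b and 0.58 for Mir16, higher at P1, and -1.93 for Mir195 and -3.10 for Mir497, lower at P1. By length-free level this group, nearly all of it Mir16 and Mir15b, stood at 36158 at P1 and 8676 at P21, a log2 difference of 2.06 beside 2.59 for mir-322. On the same scale mir-322 and mir-503 together stood at 3514 and 164. The cluster thus made up a small part of the miRNAs with these seeds, and a smaller one at P21.

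The mir-125 loci, which share the seed of mir-351, were lower at P1 than at P21, opposite to the cluster. Mir125a and Mir125b1, the first the more abundant, summed to 37536 FPKM at P1, 81386 and 80947 at P3 and P5, 158029 and 126512 at P7 and P10, and 116812 and 245483 at P15 and P21, both at least 2-fold lower at P1. Against length-free levels of 67.4 at P1 and 12.8 at P21 for mir-351, those of mir-125 were 2649.7 and 8659. The courses were not opposite throughout. On this scale mir-125 was highest at P7 (10073) and fell to P10 (5164) and P15 (4999), ages over which the cluster fell too.

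Other miRNA clusters known from dividing cells were set beside the cluster, with 32.9% of all miRNA features at least 2-fold higher at P1. The names of the mir-17-92 cluster, a promoter of proliferation, took in 8 loci, of which 7 were at least 2-fold higher at P1 than at P21, with summed FPKM of 3673281, 2873224, 2789752, 1275526, 1762686, 1033249 and 810266 in order of age and Mir19b2 most abundant. All 3 loci of its relative mir-106b-25 were higher, with 586744, 472287, 495025, 326985, 318830, 174179 and 141858 FPKM and Mir106b most abundant. The names of the mir-106a-363 cluster took in 3 loci, 2 of them higher, with 34942, 36093, 26333, 25255, 18369, 7670.4 and 12518 FPKM and Mir106a most abundant. Names do not follow place here, since Mir19b2 and Mir92a2 lie on chromosome X beside Mir363. By place, the 6 loci on chromosome 15 were all higher at P1, and 3 of the 5 loci on chromosome X were. The chromosome X loci measured 956647 FPKM at P1 and 340057 at P21, of which Mir19b2 alone made up 920699 and 326989. Mir19b2 and its chromosome 15 copy Mir19b1 had near-equal mean length-free levels, 31461 and 31422, so their signal cannot be placed on either chromosome.

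The imprinted loci Mir483, which lies in Igf2, and Mir675, made from H19, summed to 4824 FPKM at P1, 5460.2 and 4129 at P3 and P5, 2373 and 2138 at P7 and P10, and 1137 and 1807 at P15 and P21, with Mir483 the more abundant by alignments. Of these, Mir675 was at least 2-fold higher at P1, on 11 estimated alignments at P1 and 4 at P21. The let-7 family, which rises as progenitors mature in many tissues, had 9 loci, 0 higher and 1 lower at P1, led by Mirlet7g. Its summed FPKM was 591231, 617792, 739209, 464060, 939149, 652510 and 887619 in order of age, highest at P10 and not at P1. Its length-free level was highest at P1, at 58629, with 54809 at P10 and 41218 at P21. The direction of its small difference and the age of its highest level thus turned with the scale.

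The 10 miRNA features most like the summed cluster over the 7 ages, among 556 with a mean of at least 100 FPKM, were Mir363 (Pearson correlation of log2 FPKM 0.97), Mir675 (0.97), AABR07005416.1 (0.96), Mir19a (0.96), Mir494 (0.96), Mir20a (0.96), Mir3589 (0.95), Mir18a (0.95), Mir106b (0.95) and Mir19b2 (0.94). The least like were Mir664-2 (-0.95), AABR07030200.1 (-0.94) and rno-mir-3556b-1 (-0.93). Mir664-2 was listed at 0 at P1, P3 and P5. These correlations describe 7 libraries with no replicate, and that of Mir675 rests on a mean of 6.5 alignments per library. Of the 10, 6 were also among the 10 highest by Spearman correlation, 8 after scaling to the miRNA total and 5 with Mir450a1 taken out of the sum.

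Mir363, the nearest, measured 6025 FPKM at P1, 4973 and 4971 at P3 and P5, 3354 and 3166 at P7 and P10, and 2242 and 2302 at P15 and P21. Its log2 difference of 1.39 between P1 and P21 was smaller than the 3.09 of the cluster. Mir20a, of the mir-17-92 cluster, fell from 970552 FPKM at P1 to 57224 at P21, a log2 difference of 4.08, close to those of Mir503 and rno-mir-503-1.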

How the data were processed

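The deposited table gives FPKM of noncoding RNA features at each age, which the authors made with Cuffdiff 2.2.1.3 and Cufflinks on Rnor_6.0, per the submitters' processing notes. It also holds fold changes, test statistics, p, q and significance calls for 21 pairs of ages, and these were not used. A feature had the same FPKM in every pair it appeared in. Differences are log2(FPKM + 1), with P21 as reference and 2-fold as limit. Alignments were estimated from the steps of low FPKM values. The estimate was tested on simulated data and revised until it recovered the steps in every simulated P1 to P15 library; for P21 it recovered them in most, not all. Intervals take the steps of a library to hold equal signal. A hairpin's value does not separate its 5p and 3p strands. Named miRNAs are every member, the 10 features most like and the 3 least like the summed cluster among those with a mean of at least 100 FPKM, and the comparison and marker lists. Members and lists were chosen with earlier results of these data known, and the mir-125 list was added after the sequences were seen. Single loci of the lists, their grouping by chromosome, the series of counts and the muscle loci within them were singled out after their values were seen. Alternatives were 3 scalings (miRNA total, median of ratios, trimmed mean of M-values), pseudocounts of 0.1 and 10, limits of 1.5-fold and 4-fold, a filter on alignments, loci of 1 name counted once, the mean of P15 and P21 as reference, the sum without its most abundant locus (Mir450a1) for P1 against P21, and length-free levels for the ages of the highest and lowest sum. Chosen after seeing the data were length-free levels for other results, other results without Mir450a1, ratios of counted alignments, and intervals with counts divided by the number of copies. Python 3.11.15, numpy 2.4.6, pandas 2.3.3, scipy 1.17.1 and matplotlib 3.10.9 were used.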

Additional observations from a re-analysis of the deposited data

How the results depend on the processing

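The log2 difference of the summed cluster between P1 and P21, 3.09 as deposited, was 3.71 after scaling to the miRNA total and 4.12 by length-free level, a setting chosen after seeing the data. Both divide by miRNA totals, and the first moved the median of all miRNAs at P1 from 0.05 to 0.67. Under the other settings it lay between 2.82 and 3.19. The count of 11 members at least 2-fold higher at P1 (beside 32.9% of all miRNAs) became 5 (beside 21.0% of all) with a limit of 4-fold, which asks for more, and 5 with a mean of at least 20 alignments, which left 5 members (beside 29.4% of the 344 miRNAs left). After scaling to the miRNA total it was 12, beside 43.6% of all. By length-free level, a setting chosen after seeing the data, it was 12 beside 50.2% of 568 miRNAs. The age of the highest sum moved from day 1 to day 3 after scaling to the miRNA total and to day 3 by median of ratios. The cause was not tested. As deposited and without Mir450a1, a setting chosen after seeing the data, it was day 1. P21 was lowest under every setting tried. Of 360 recomputed values of single members, 354 stayed within their counting intervals, 6 moved, all under the miRNA total, and the largest move was 0.87. No value past 2-fold changed sign, but 12 smaller ones did, at most 0.44 in size as deposited: 7 under the miRNA total, 3 under trimmed mean of M-values and 2 under median of ratios, all at P7 or P15. Of 42 ratios between cluster miRNAs, 41 stayed within their intervals in counted alignments, and that of mir-450a to mir-322 at P3 went from 0.886 to 0.613. Some larger moves stayed within wide intervals. At P15 mir-450a to mir-322 went from 0.248 to 0.6 and mir-351 to mir-322 from 0.0247 to 0.08. At P10 mir-450a to mir-450b went from 1.14 to 0.588. With counts divided by the number of copies, a setting chosen after seeing the data, the interval of mir-503 to mir-322 came to include 1 at P7, P10 and P15, and the lower limit of the P1 to P21 difference of the cluster went from 2.70 to 2.57. No paired analysis was possible because each age has 1 library of pooled RNA. The loci of mir-351 had the fewest alignments. Low depth also limits mir-450b, mir-450a and mir-542, of whose loci only Mir450a1 reached a mean of 20 alignments. Differences between ages cannot be told apart from differences between libraries.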
